A study of Homo sapiens with 12 samples.

Results

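The genes described here form the core of the switch that takes a cell out of G1: the D-type cyclins CCND1, CCND2 and CCND3, the E-type cyclins CCNE1 and CCNE2, the kinases CDK4 and CDK6, the inhibitors CDKN1B (p27) and CDKN2A (p16 and ARF), and the pocket protein RB1. They are 10 named genes, found by Ensembl identifier in 2 count tables that list 61860 and 62700 genes. The libraries hold RNA of RT4, a human cell line from a bladder tumour, in 2 experiments with 3 libraries per group. In the overexpression experiment, cells that received an ITGB4 plasmid with a Flag tag, coding for the integrin beta 4 subunit, were set against cells with an empty vector. In the resistance experiment, cisplatin-resistant RT4 cells, labelled as wild type and treated with cisplatin, were set against parental RT4 cells, labelled as wild type and treated with PBS. No dose, time or clone is given, so resistance and drug exposure cannot be told apart, and the labels do not say what drives the plasmid. The growth medium also differed between the experiments, McCoy's 5A for the first and MEM for the second.

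As background, D-type cyclins are made in answer to growth signals and bind CDK4 or CDK6, and the complex phosphorylates RB1. RB1 then releases E2F transcription factors, which switch on genes of DNA replication, the E-type cyclins among them, and cyclin E with CDK2 completes RB1 phosphorylation. CDKN1B holds cyclin E and CDK2 inactive, while p16 from CDKN2A blocks CDK4 and CDK6, and loss of p16 or RB1 is frequent in bladder cancer.

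Library totals were 22701466 to 33352045 counts in the overexpression experiment and between 31824582 and 38199946 in the resistance experiment. ITGB4 averaged 1427 ± 53.6 CPM with the plasmid and 869 ± 10.97 CPM with the vector (SD, n = 3 each), a log2 fold change of 0.71. It was also higher in resistant cells, at 837 ± 9.37 CPM, against 600 ± 2.09 CPM in parental cells (log2 fold change 0.48). CPM are counts scaled to library size, after TMM correction for library composition. The group labels of libraries 2 and 3 of each transfected group name ITGB5 and ITGB6, whereas the titles name ITGB4 throughout. Of 16 urothelial and epithelial markers, 13 or 14 reached 1 CPM in each group, with KRT20 at 0, and the summed level of 4 leukocyte markers was at most 0.561 CPM. The summed urothelial and epithelial level was 6816 to 7272 CPM with the plasmid and 5068 to 5254 CPM with the vector, and 7854 to 9070 CPM in resistant and 7523 to 7608 CPM in parental libraries. The summed level of 5 fibroblast markers was 24.4 to 26.0 CPM with the plasmid and 48.2 to 52.3 CPM with the vector, and 4.43 to 5.73 CPM in resistant and 11.5 to 11.9 CPM in parental libraries. The part of these shifts in the results that follow was not tested.

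Of the 10 genes, 9 passed the low-count filter in each experiment, and CDKN2A did not. Genes with a Benjamini-Hochberg adjusted p under 0.05 in edgeR's quasi-likelihood test are called higher or lower, and every adjusted p below comes from that test. With the ITGB4 plasmid, CCND1, CCND3, CCNE1 and CCNE2 were higher and CCND2, CDK4, CDK6 and CDKN1B were lower, so 8 of 9 were called. Of all 16950 genes tested in that comparison, 72.2% were called, so a call alone sets these genes little apart. In resistant cells, CCND2, CCNE1, CCNE2 and CDK4 were higher and CCND1, CDKN1B and RB1 were lower, so 7 of 9 were called, against 54.5% of 16875 genes. The median log2 fold change over the 9 genes was 0.06 in the overexpression and 0.02 in the resistance comparison, and over all genes tested it was 0.00 and 0.02. A stricter call, a change shown to exceed 1.5-fold by edgeR's glmTreat, held for CCND2, CCND3 and CCNE1 with the plasmid, where 22.5% of all genes passed it. In resistant cells CCNE2 (adjusted p = 0.0354) and CDK4 (adjusted p = 0.0186) passed it, with 12.5% of all genes. In bulk RNA, fewer cells of a kind and less RNA per cell cannot be told apart.

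**Figure D1:**
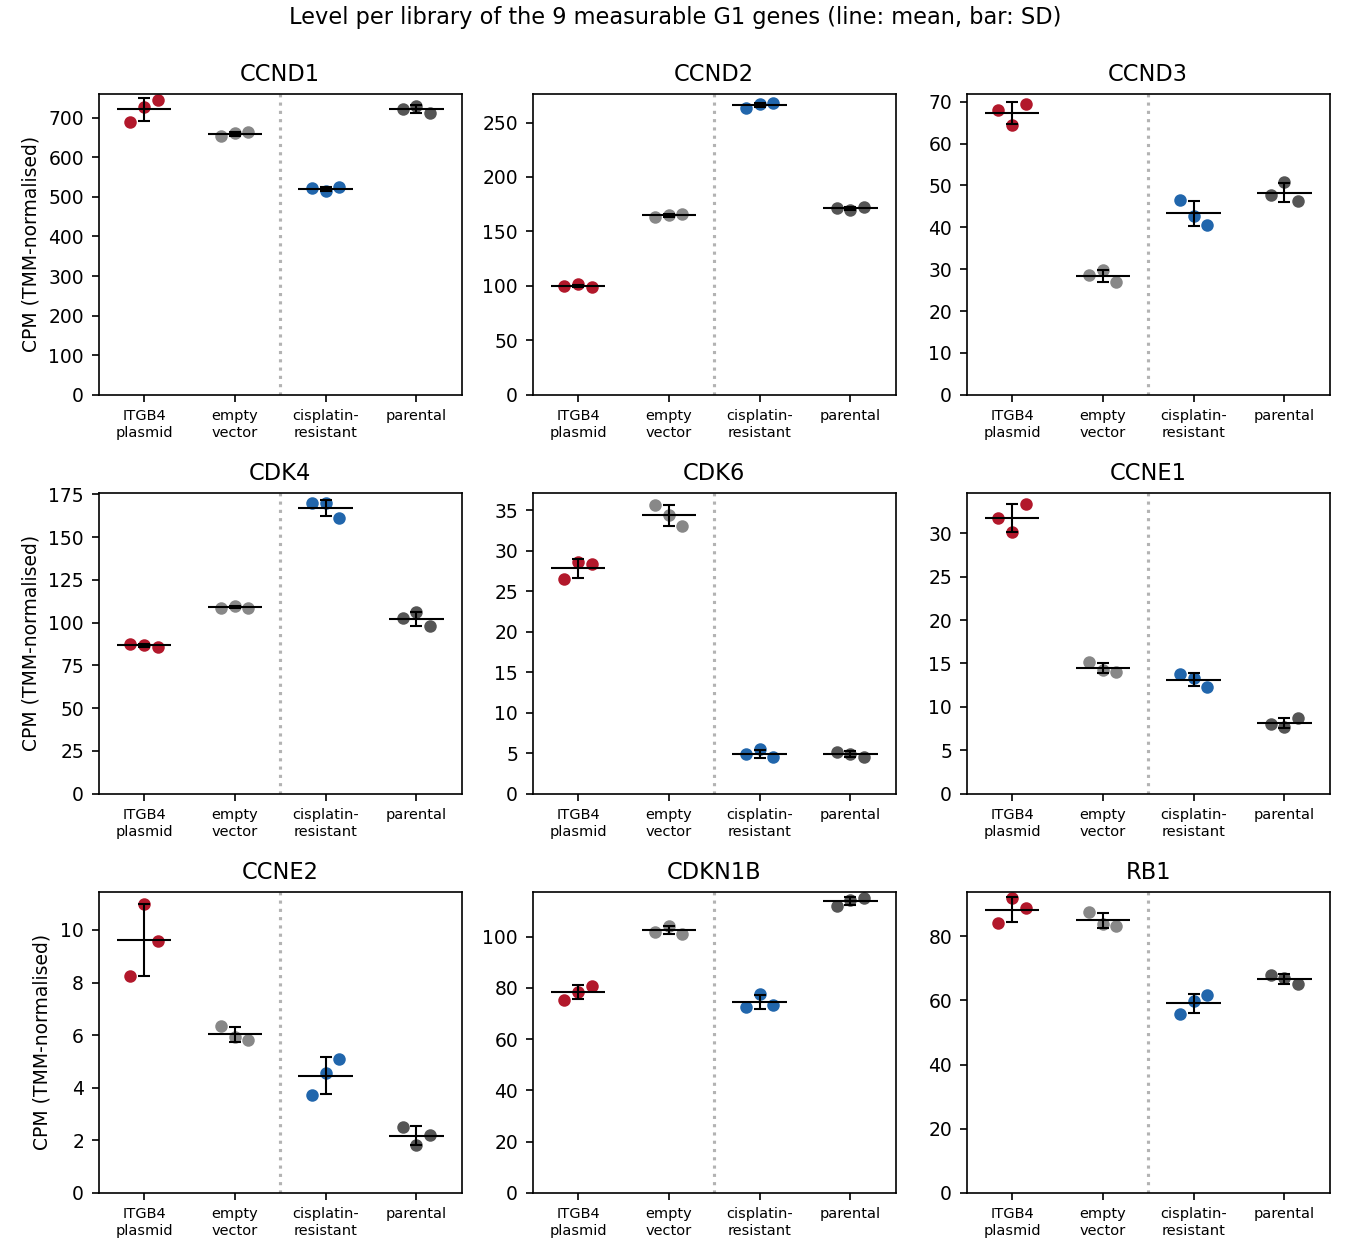
Each panel plots 1 gene, with TMM-normalised CPM per library on the vertical axis and the 4 groups on the horizontal axis; points are libraries, lines are group means and bars are SD (n = 3). CCND3 and CCNE1 with the plasmid lie far above the vector libraries, CDKN1B lies lower with the plasmid and in resistant cells than in the controls, and CDK6 is near 5 CPM in both groups of the resistance experiment.

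CCND1 (ENSG00000110092, chromosome 11, 69641087 to 69654474, plus strand, GRCh38) encodes cyclin D1, the D-type cyclin most often amplified in bladder tumours. With the plasmid it had 689.8, 727 and 746 CPM, against 654, 662 and 664 CPM with the vector. The groups did not overlap, but the nearest libraries stood close together. The log2 fold change was 0.13 ± 0.027 (adjusted p = 0.000496), a rise of 1.09-fold, where ± is its size over the square root of F, the statistic of that test. In resistant cells CCND1 had 522, 515 and 524 CPM, against 723, 731 and 712 CPM in parental cells. All 3 resistant libraries were lower than all 3 parental ones, and the log2 fold change was -0.47 ± 0.034 (adjusted p = 2.45e-09). The change of CCND1 with the plasmid minus that in resistance was 0.58 ± 0.043 on the log2 scale (adjusted p = 2.56e-10), in 1 fit of all 12 libraries.

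CCND2 (ENSG00000118971, chromosome 12, 4273772 to 4305350, plus strand) encodes cyclin D2 and moved against CCND1 in both experiments. It had 99.97, 101.3 and 99.1 CPM with the plasmid, against 163.5, 165 and 166 CPM with the vector. The libraries of each group lay within a few CPM of each other, far from the other group. CCND2 was 1.65-fold lower (log2 fold change -0.72 ± 0.028, adjusted p = 3.64e-13). In resistant cells it had 264, 267 and 268 CPM, against 171.5, 169.7 and 172 CPM in parental cells. Here the resistant libraries were all higher, by 1.55-fold (log2 fold change 0.64 ± 0.039, adjusted p = 2.90e-10). The difference between the experiments was -1.38 ± 0.043 (adjusted p = 1.96e-16).

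CCND3 (ENSG00000112576, chromosome 6, 41934933 to 42050357, minus strand) encodes cyclin D3, the remaining partner of CDK4 and CDK6. It showed the largest change of any of these genes with the plasmid, at 68.0, 64.5 and 69.4 CPM, against 28.5, 29.8 and 26.9 CPM with the vector. All plasmid libraries were more than 2-fold above every vector library. The log2 fold change was 1.25 ± 0.044 (adjusted p = 1.10e-13). Resistant cells had 46.6, 42.7 and 40.7 CPM, against 47.8, 50.7 and 46.2 CPM in parental cells. The highest resistant library lay above the lowest parental one, so the groups overlapped. The log2 fold change of -0.16 ± 0.065 missed the threshold (adjusted p = 0.0516), and without resistant library 1 it was -0.20 (adjusted p = 0.00828). The plasmid change exceeded the resistance change by 1.38 ± 0.082 on the log2 scale (adjusted p = 7.19e-12).

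Because the 3 cyclins have different exon lengths, their relative levels were compared as shares of their summed counts per kb of exon. CCND1 held the larger part in every library. With the plasmid it made up 85.4 ± 0.518% of the sum, against 83.0 ± 0.109% with the vector. CCND2 made up 8.01 ± 0.303% with the plasmid and 13.98 ± 0.0497% with the vector, and CCND3 6.64 ± 0.317% with the plasmid and 2.98 ± 0.153% with the vector. CCND3 was the smallest of the 3 in all 4 groups. In resistant cells the balance between CCND1 and CCND2 differed from parental cells. CCND1 made up 70.7 ± 0.222% in resistant and 82.3 ± 0.103% in parental cells, and CCND2 24.4 ± 0.282% in resistant and 13.2 ± 0.258% in parental cells. The CCND3 share was 4.90 ± 0.338% in resistant and 4.58 ± 0.164% in parental cells. All of these except the CCND3 share in resistance gave p = 0.1 in a two-sided exact permutation test over libraries, the smallest p that 3 against 3 allow, and the exception gave p = 0.2.

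**Figure D2:**
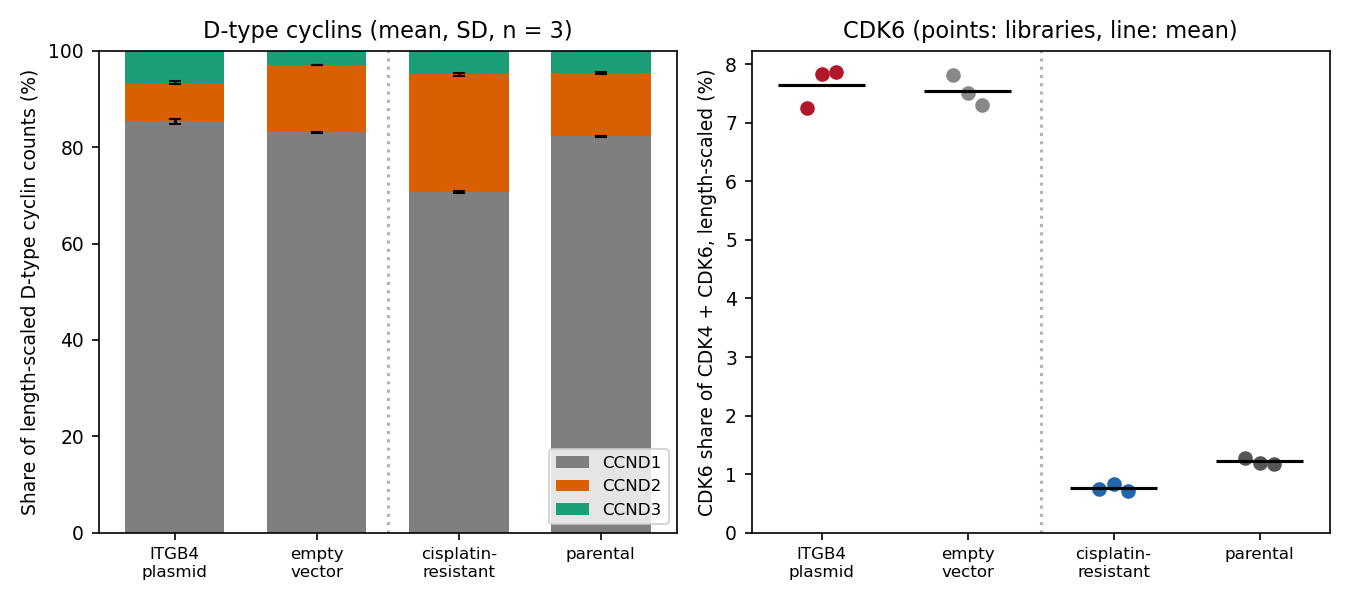
Left, the share of CCND1, CCND2 and CCND3 in their summed length-scaled counts (percent, vertical axis) in the 4 groups, as stacked bars of means (n = 3). Error bars at the top of the CCND1 and CCND2 segments are the SD of that gene's own share. Right, the share of CDK6 in CDK4 plus CDK6 (percent), with points for libraries and lines for means. The CCND2 segment is narrower with the plasmid (8.01%) than with the vector (13.98%) and wider in resistant (24.4%) than in parental cells (13.2%).

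CDK4 (ENSG00000135446, chromosome 12, 57747727 to 57756013, minus strand) is a catalytic partner of the D-type cyclins. It had 87.6, 87.1 and 85.8 CPM with the plasmid, against 108.7, 109.5 and 108.6 CPM with the vector. The plasmid libraries were all lower, with a log2 fold change of -0.33 ± 0.029 (adjusted p = 2.06e-08). In resistant cells it had 169.8, 169.7 and 161 CPM, against 102.8, 106 and 97.9 CPM in parental cells. Every resistant library was higher, and the fold was 1.63 (log2 fold change 0.71 ± 0.046, adjusted p = 7.75e-10). The difference between the experiments was -1.06 ± 0.053 (adjusted p = 5.28e-13). CDK4 shares 1369 exon bases, 43.2% of its exon length, with TSPAN31 on the opposite strand. The overexpression table was counted with no strand option, and the setting of the resistance table is not given in the sources used here. Reads of that stretch may thus count for either gene or for neither. The levels and shares per kb use the full exon length, this stretch included. TSPAN31, a tetraspanin gene, had log2 fold changes of 0.07 with the plasmid (adjusted p = 0.271) and -0.32 in resistance (adjusted p = 0.00251), neither in the direction of CDK4.

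CDK6 (ENSG00000105810, chromosome 7, 92604921 to 92836594, minus strand) is the sister kinase. It had 26.5, 28.6 and 28.4 CPM with the plasmid, against 35.6, 34.4 and 33.1 CPM with the vector. The groups were apart, with a log2 fold change of -0.30 ± 0.046 (adjusted p = 2.04e-05). In resistant cells CDK6 had 4.90, 5.49 and 4.51 CPM, against 5.18, 4.97 and 4.52 CPM in parental cells. Those 6 libraries overlapped throughout, and the log2 fold change of 0.02 ± 0.15 was not called (adjusted p = 0.907). The difference between the experiments was -0.35 ± 0.12 (adjusted p = 0.0137), and it lost the call without resistant library 2 (adjusted p = 0.0744) or parental library c (adjusted p = 0.0633). Per kb of exon, CDK6 made up 7.65 ± 0.350% of CDK4 and CDK6 together with the plasmid and 7.54 ± 0.257% with the vector, which overlapped (exact permutation p = 0.7, two-sided). It made up 0.762 ± 0.0594% in resistant and 1.22 ± 0.0563% in parental cells, without overlap (exact permutation p = 0.1, the smallest possible). CDK4 was thus the main transcript of the pair in every library.

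CCNE1 (ENSG00000105173, chromosome 19, 29811898 to 29824308, plus strand) encodes cyclin E1, the partner of CDK2 at the end of G1. It had 31.7, 30.1 and 33.4 CPM with the plasmid, against 15.1, 14.3 and 13.97 CPM with the vector. All plasmid libraries were higher, and the fold was 2.20 (log2 fold change 1.14 ± 0.055, adjusted p = 8.78e-12). In resistant cells CCNE1 had 13.8, 13.4 and 12.3 CPM, against 7.99, 7.71 and 8.75 CPM in parental cells. The groups were again separate, at 1.61-fold (log2 fold change 0.69 ± 0.10, adjusted p = 1.94e-05). The plasmid change was the larger, by 0.43 ± 0.11 on the log2 scale (adjusted p = 0.00154).

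CCNE2 (ENSG00000175305, chromosome 8, 94879770 to 94896678, minus strand) encodes cyclin E2 and was the least abundant cyclin by CPM. It had 8.26, 11 and 9.58 CPM with the plasmid, against 6.35, 5.91 and 5.83 CPM with the vector. All plasmid libraries were higher, although they spread more widely, and the fold was 1.60 (log2 fold change 0.68 ± 0.10, adjusted p = 1.14e-05). Resistant cells had 3.71, 4.57 and 5.10 CPM, against 2.50, 1.81 and 2.22 CPM in parental cells. The lowest resistant library stood above the highest parental one, at a fold of 2.05 (log2 fold change 1.03 ± 0.19, adjusted p = 0.000227). The difference between the experiments, -0.38 ± 0.21, was not called (adjusted p = 0.115), and it was -0.48 without resistant library 1 (adjusted p = 0.0405) and -0.56 with library sizes alone (adjusted p = 0.0240). CCNE2 shares 1629 exon bases, 37.0% of its exon length, with INTS8, an Integrator subunit gene, on the opposite strand. As for CDK4, reads of that stretch may count for either gene or for neither. INTS8 had log2 fold changes of -0.07 with the plasmid (adjusted p = 0.0565) and -0.26 in resistance (adjusted p = 0.00168), opposite in sign to CCNE2.

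CDKN1B (ENSG00000111276, chromosome 12, 12715058 to 12722371, plus strand) encodes p27, the inhibitor of cyclin E with CDK2. It had 75.3, 78.5 and 80.9 CPM with the plasmid, against 101.9, 104 and 101.2 CPM with the vector. All plasmid libraries were lower, by 1.31-fold (log2 fold change -0.39 ± 0.033, adjusted p = 1.42e-08). In resistant cells CDKN1B had 72.5, 77.4 and 73.2 CPM, against 112, 114 and 115 CPM in parental cells. The gap was wider there, at 1.53-fold lower (log2 fold change -0.61 ± 0.047, adjusted p = 6.19e-09). The difference between the experiments was 0.20 ± 0.055 (adjusted p = 0.00341), but with library sizes alone, in place of TMM scaling, it was 0.02 (adjusted p = 0.740). CDKN1B was thus lower and CCNE1 and CCNE2 higher in both comparisons. Of 15655 genes tested in both, 7.11% were called higher in both and 7.72% lower in both. CCND1, CCND2 and CDK4 were called in opposite directions, as were 30.0% of the genes.

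The other inhibitor gene, CDKN2A (ENSG00000147889, chromosome 9, 21967753 to 21995301, minus strand), was practically not detected. It had 1 count in plasmid library 2 and 0 in the other plasmid and all vector libraries, and 0 in all 6 libraries of the resistance experiment. At these depths, 3 counts in a group correspond to 0.0377 CPM with the plasmid, 0.0342 CPM with the vector, 0.0288 CPM in resistant and 0.0270 CPM in parental cells, a limit that covers counting error only. Of its listed neighbours, CDKN2B, CDKN2B-AS1, DMRTA1 and ELAVL2 had 0 counts in all 12 libraries. MTAP had 4 counts in 1 resistant library and 0 elsewhere. KLHL9 and FOCAD were expressed. KLHL9 spans bases 21329671 to 21335380 and FOCAD 20658309 to 20995955. Of the genes without counts, DMRTA1 (22446841 to 22455740) lies nearer to CDKN2A than both, and ELAVL2 (23690104 to 23826337) lies farther from it. KLHL9 averaged 32.1 ± 0.434 CPM with the plasmid and 43.5 ± 1.35 CPM with the vector (SD, n = 3 each). FOCAD averaged 34.7 ± 0.350 CPM with the plasmid and 50.3 ± 1.42 CPM with the vector. Both were lower with the plasmid (log2 fold changes -0.44 and -0.53, adjusted p = 3.49e-08 and 1.47e-09). In resistant and parental cells KLHL9 averaged 37.3 ± 1.26 and 36.4 ± 0.617 CPM, and FOCAD 22.6 ± 0.825 and 24.0 ± 0.539 CPM, neither called. No DNA copy number was measured, and the cause of the absent counts was not tested.

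RB1 (ENSG00000139687, chromosome 13, 48303726 to 48599436, plus strand), the substrate of these kinases, had the smallest change of the 9 genes tested with the plasmid. It had 84.2, 91.8 and 88.9 CPM with the plasmid, against 87.6, 83.9 and 83.3 CPM with the vector. The groups overlapped and the log2 fold change of 0.06 ± 0.036 was not called (adjusted p = 0.154), although it was 0.09 (adjusted p = 0.0176) without plasmid library 1. Resistant cells had 55.7, 59.8 and 61.6 CPM, against 67.9, 67.0 and 65.0 CPM in parental cells. They did not overlap, and the log2 fold change was -0.17 ± 0.054 (adjusted p = 0.0116). That call was lost without parental library a (-0.16, adjusted p = 0.0518), and with library sizes alone the log2 fold change was -0.01 (adjusted p = 0.900). The difference between the experiments, 0.21 ± 0.064 (adjusted p = 0.00796), was 0.03 (adjusted p = 0.743) with library sizes alone.

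**Figure D3:**
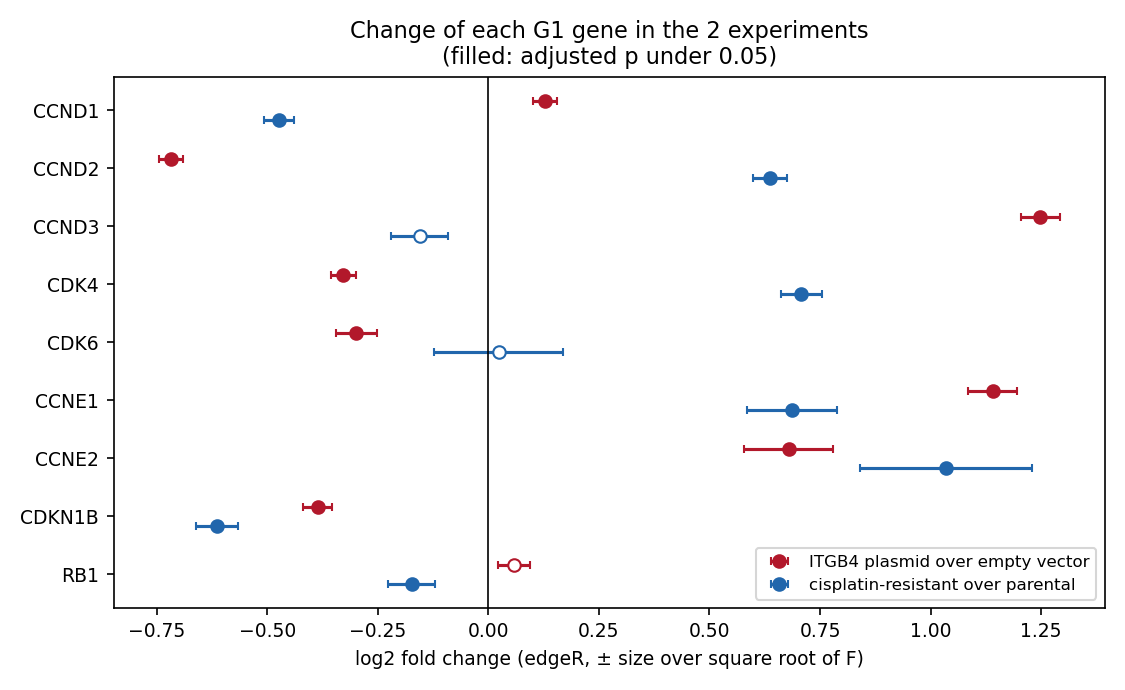
Log2 fold changes (horizontal axis) of the 9 tested genes (vertical axis) for the ITGB4 plasmid over empty vector and for cisplatin-resistant over parental cells, with bars of ±, the size of the change over the square root of F, and filled points for an adjusted p under 0.05. CCND1, CCND2 and CDK4 lie on opposite sides of 0 in the 2 comparisons, CCNE1 and CCNE2 lie to the right and CDKN1B to the left in both, and CCND3 lies at 1.25 for the plasmid and -0.16 for resistance.

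Taking the difference between experiments for all 9 genes, 8 were called, against 61.8% of 18516 genes; CCNE2 was not. The 2 control groups differed as well, although the tables were normalised separately and were not tested against each other. In the order vector and parental, CDK6 averaged 34.4 and 4.89 CPM, CCNE1 14.5 and 8.15 CPM, CCNE2 6.03 and 2.18 CPM, and CCND3 28.4 and 48.2 CPM. CCND1, CDK4 and CDKN1B were closer, for example 108.9 CPM of CDK4 in vector and 102 CPM in parental libraries. Per kb of exon, CCND1 was the most abundant of the genes in all 4 groups, at 149 CPM per kb with the plasmid, 137 with the vector, 107.7 in resistant and 149.5 in parental cells. CDKN1B came next with the plasmid (27.8, overlapping CDK4 at 27.4), with the vector (36.4, above CDK4 at 34.4) and in parental cells (40.5). In resistant cells CDK4 (52.7) and CCND2 (37.2) ranked above CDKN1B, at 26.5 CPM per kb. These levels divide by the full exon length, of which CDK4 shares 43.2% and CCNE2 37.0% with a gene on the opposite strand. Reads of those stretches may count for either gene or for neither, so the places of CDK4 and CCNE2 in this order are uncertain. By CPM, CDK4 stood above CDKN1B with the plasmid (86.8 against 78.2) and the vector (108.9 against 102.4), but below it in parental cells (102 against 114). CDK6 and CCNE2 were the 2 lowest of the detected genes in every group. With the plasmid their levels overlapped, at 2.27 and 2.19 CPM per kb, and so did they in parental cells, at 0.399 and 0.495 CPM per kb.

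The promoters of CCNE1, CDKN1B and CDK4 are shown as a cyclin, an inhibitor and a kinase that were called in both comparisons and have 1 window each. RefSeq (GRCh38.p14) gave a window from 250 bases before to 50 after a start for 7 of the 10 genes, 11 windows in all. CCND1, CCND2 and CCNE2 were without a window. The lines below run 5′ to 3′ on the gene's strand, with the GC box GGGCGG, the letters known for Sp1, in capitals on either strand. CCNE1 is the window chr19:29811741-29812040 (plus strand), CDKN1B is chr12:12717118-12717417 (plus strand) and CDK4 is chr12:57752261-57752560 (minus strand). The windows of CDKN1B and CDK4 lie inside the GENCODE 29 spans of these genes given above.
CCNE1: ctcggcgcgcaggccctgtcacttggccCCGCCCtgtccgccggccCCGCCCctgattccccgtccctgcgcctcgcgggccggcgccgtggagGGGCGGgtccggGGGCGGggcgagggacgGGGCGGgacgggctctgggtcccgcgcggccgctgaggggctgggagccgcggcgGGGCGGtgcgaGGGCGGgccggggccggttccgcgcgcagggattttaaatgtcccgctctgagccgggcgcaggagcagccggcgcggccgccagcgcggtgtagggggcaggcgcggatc
CDKN1B: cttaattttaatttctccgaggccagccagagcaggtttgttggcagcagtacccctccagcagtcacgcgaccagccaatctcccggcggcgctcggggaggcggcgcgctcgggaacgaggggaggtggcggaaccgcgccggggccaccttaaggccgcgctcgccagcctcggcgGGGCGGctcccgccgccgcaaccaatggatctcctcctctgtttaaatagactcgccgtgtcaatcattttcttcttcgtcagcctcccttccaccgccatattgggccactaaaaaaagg
CDK4: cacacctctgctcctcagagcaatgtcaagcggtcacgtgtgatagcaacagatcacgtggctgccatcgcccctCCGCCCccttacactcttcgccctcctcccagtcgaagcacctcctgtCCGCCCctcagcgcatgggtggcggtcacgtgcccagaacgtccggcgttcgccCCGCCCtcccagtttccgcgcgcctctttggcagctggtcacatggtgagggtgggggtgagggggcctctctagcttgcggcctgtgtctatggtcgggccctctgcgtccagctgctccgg
CCNE1 had 7 GC boxes in this window, CDK4 3 and CDKN1B 1. A GC box occurred in 7 of the 11 windows and in 45.0% of all 35116 promoters of the table. None of the 11 windows held the E2F letters searched on both strands (TTTCCCGC, TTTCGCGC, TTTGCCGC and TTTGGCGC), which 3.31% of all promoters held. With so low a share, their absence from 11 windows says little. Other forms of the E2F site were not searched, so these windows may hold such sites. The STAT letters TTCNNNGAA (7.66% of all promoters) and TGANTCA, a loose form of the AP-1 site (7.71%), were searched with N as any base. Each was present in 1 window, that of RB1 (chr13:48476200-48476499), which lies inside the gene, far from its GENCODE 29 start. The letters matched there for AP-1 were TGAATCA. A match of letters is a description and not a bound site.

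Downstream of these genes, 23 textbook E2F targets of the G1/S step were followed. With the plasmid 19 were higher and 2 lower, with a median log2 fold change of 0.64, against 36.5% higher and 35.7% lower over all genes and a median of 0.00. RRM2, the ribonucleotide reductase subunit, averaged 294 ± 3.89 CPM with the plasmid and 133 ± 2.23 CPM with the vector (log2 fold change 1.15), and in resistance its log2 fold change of 0.07 was not called (adjusted p = 0.202). ORC1 and CDC6, which license origins of replication, had log2 fold changes of 1.32 and 0.91 with the plasmid, but were lower in resistance, at -0.57 (adjusted p = 1.06e-05) and -0.19 (adjusted p = 0.00213). In resistant cells 13 of the 23 were higher and 5 lower, with a median of 0.30, against 26.8% and 27.7% of all genes. There the helicase subunits MCM5 and MCM6 had log2 fold changes of 1.25 and 1.29, against 0.82 and 0.49 with the plasmid. The repair enzyme UNG was higher in resistance, at 1.27, and lower with the plasmid, at -0.27 (adjusted p = 6.49e-06), while CCNA2, the S and G2 cyclin, averaged 25.3 ± 0.352 CPM in resistant and 72.0 ± 2.47 CPM in parental cells (log2 fold change -1.51) and was not called with the plasmid (-0.07, adjusted p = 0.115). The list was thus not of 1 kind in resistance. The G2 and mitosis markers were mostly lower: 4 of 15 were higher and 11 lower with the plasmid, and all 15 were lower in resistance, with medians of -0.35 and -1.62. CDC20, needed for the start of anaphase, averaged 60.0 ± 3.02 CPM with the plasmid and 95.4 ± 0.951 CPM with the vector, and 27.6 ± 0.563 CPM in resistant and 127 ± 2.36 CPM in parental cells. The part of a different share of cells per cycle phase in the levels of the G1 genes was not tested.

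Of the pocket proteins, E2F and DP factors, 6 of 12 were higher and 3 lower with the plasmid, and 4 were higher and 4 lower in resistance. Over all genes, 36.5% were higher and 35.7% lower with the plasmid, and 26.8% higher and 27.7% lower in resistance, so the resistance counts were near the background. E2F8, a repressive E2F, averaged 25.8 ± 0.475 CPM with the plasmid and 7.83 ± 0.125 CPM with the vector (log2 fold change 1.72, adjusted p = 7.11e-14), and E2F2, an activating one, had 1.67 (adjusted p = 3.08e-09). In resistant cells both were lower, with log2 fold changes of -0.64 and -1.32, whereas E2F1, another activator, averaged 12.2 ± 0.827 CPM in resistant and 5.13 ± 0.565 CPM in parental cells (log2 fold change 1.25, adjusted p = 9.05e-08), and was 0.26 higher on the log2 scale with the plasmid (adjusted p = 0.00141). RBL2, the p130 pocket protein, was lower with the plasmid (log2 fold change -0.43, adjusted p = 2.71e-08) and not called in resistance (0.0019, adjusted p = 0.986).

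Among 7 other G1 kinases and activators, 3 were higher and 2 lower with the plasmid, and 2 were higher and 2 lower in resistance. These 5 and 4 of 7 were near the 72.2% and 54.5% called over all genes. CDK2, the cyclin E partner, averaged 74.8 ± 1.16 CPM with the plasmid and 50.3 ± 1.04 CPM with the vector (log2 fold change 0.57, adjusted p = 1.04e-10), and 28.0 ± 0.157 CPM in resistant and 40.6 ± 0.642 CPM in parental cells (log2 fold change -0.54, adjusted p = 1.03e-06). CDC25A, the phosphatase that activates CDK2, had log2 fold changes of 1.04 with the plasmid and -0.22 in resistance. CDC37, a chaperone partner of kinases, was higher in both (0.44 and 0.19). Of the CDK-activating kinase, CCNH had -0.41 with the plasmid and 0.29 in resistance, and MNAT1 was called in neither. CDK7 was called lower with the plasmid although the libraries overlapped (adjusted p = 0.0335), and was not called in resistance (adjusted p = 0.885). It averaged 1.20 CPM with the plasmid, and the vector libraries were uneven, at 1.22, 2.89 and 1.60 CPM. CDK3, under 1 CPM, was called in neither. Of 5 other CDK inhibitors 3 were tested, CDKN1C and CDKN2B being at or near 0, and CDKN2D was called in neither comparison. CDKN2C (p18) was lower in both comparisons (log2 fold changes -0.69 with the plasmid and -0.52 in resistance), and CDKN1A (p21) was lower with the plasmid (303 ± 3.65 against 363 ± 3.71 CPM with the vector) and higher in resistant cells (341 ± 16.7 against 296 ± 0.591 CPM in parental cells). Of 12 genes for the turnover of cyclins and p27, 7 were higher and 2 lower with the plasmid, and 3 were higher and 6 lower in resistance, to be read against the same 72.2% and 54.5% of all genes. SKP2, the ubiquitin ligase subunit that recognises p27, averaged 69.3 ± 5.59 CPM with the plasmid and 51.4 ± 0.330 CPM with the vector, and 25.4 ± 1.86 CPM in resistant and 33.1 ± 2.22 CPM in parental cells (log2 fold changes 0.44 and -0.38). AMBRA1, which targets D-type cyclins for breakdown, had log2 fold changes of 0.46 with the plasmid and -0.45 in resistance. Past 1.5-fold with the plasmid were FBXO31, higher (log2 fold change 0.82, adjusted p = 3.36e-10), and SKP1, lower (-0.79, adjusted p = 1.25e-07). In resistance FBXO31 had 0.27 and SKP1 -0.0063.

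**Figure D4:**
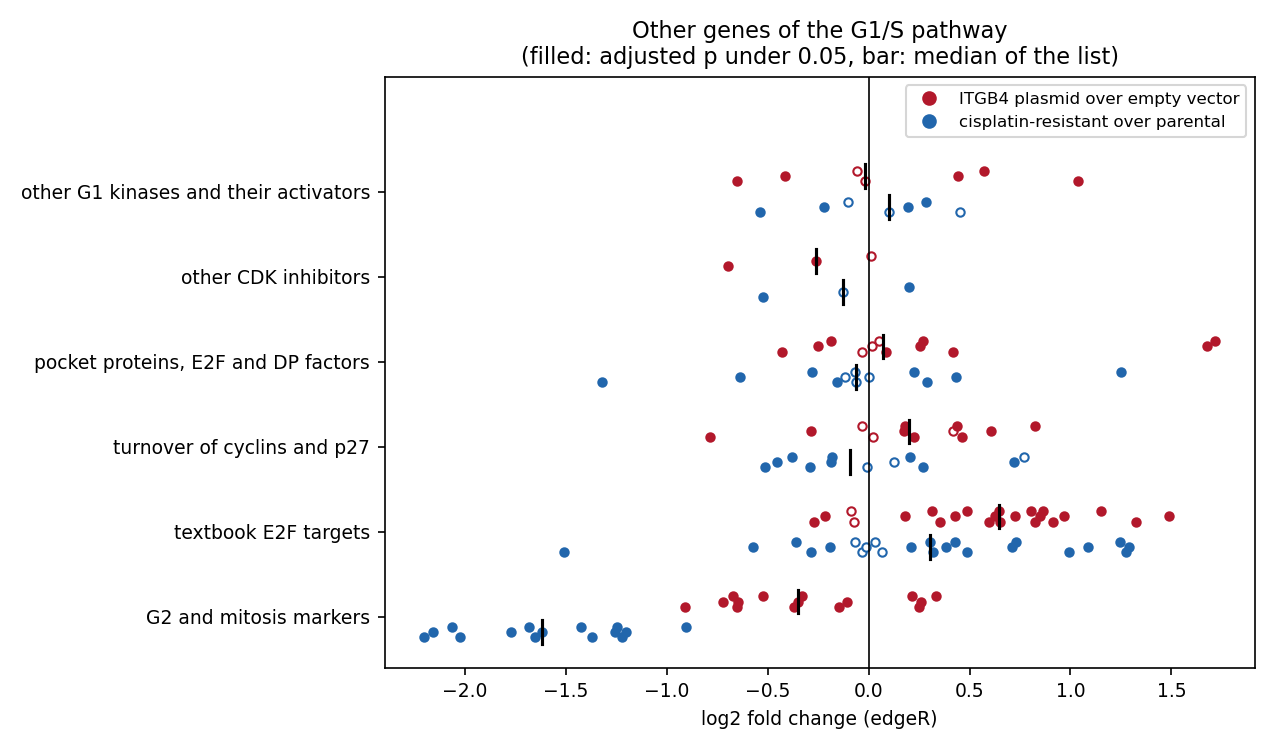
Log2 fold changes (horizontal axis) of the genes of 6 lists of the G1/S pathway (vertical axis), in red for plasmid over vector and in blue for resistant over parental cells; filled points have an adjusted p under 0.05 and black bars mark each list's median. The red E2F targets centre on 0.64 and the blue G2 and mitosis markers, all 15 below 0, on -1.62.

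Of 14 transcription factors known to act on CCND1 or CDKN1B, 5 were higher and 7 lower with the plasmid, and 3 were higher and 8 lower in resistance. Over all genes, 72.2% and 54.5% were called. MYC, a repressor of CDKN1B, averaged 130 ± 2.50 CPM with the plasmid and 329 ± 3.82 CPM with the vector (log2 fold change -1.34, adjusted p = 6.63e-17). In resistance, MYC averaged 235 ± 11.6 CPM in resistant and 233 ± 2.44 CPM in parental cells and was not called (log2 fold change 0.01, adjusted p = 0.829). The part of MYC, or of any other factor of this list, in the levels of CCND1 and CDKN1B was not tested. FOS, part of AP-1, averaged 18.8 ± 0.296 CPM with the plasmid and 178 ± 6.02 CPM with the vector, but 50.9 ± 3.02 CPM in resistant and 29.5 ± 1.60 CPM in parental cells. STAT3 averaged 322 ± 9.24 CPM in resistant and 438 ± 1.29 CPM in parental cells (log2 fold change -0.45, adjusted p = 1.74e-08), and was not called with the plasmid (-0.04, adjusted p = 0.141). Of the 8 genes flanking CCND1 on chromosome 11q13, 5 were tested, while FGF3 and FGF4 had 0 counts and FGF19 a few. FADD, an adaptor of death receptors, had log2 fold changes of 0.88 with the plasmid and -0.33 in resistance, and the chloride channel gene ANO1 had 1.64 and -2.20 from low levels, at 2.04 ± 0.303 CPM with the plasmid and 0.655 ± 0.0379 CPM with the vector. CTTN, the cortactin gene, had 0.19 and -0.21, the same signs as CCND1. PPFIA1, a liprin gene, was lower in both, at -0.15 with the plasmid (adjusted p = 0.000748) and -0.24 in resistance (adjusted p = 0.000864), against the sign of CCND1 with the plasmid. LTO1, which shares 497 exon bases with CCND1 on the opposite strand, was higher in both comparisons, by 0.35 with the plasmid and 0.20 in resistance on the log2 scale. With library sizes alone in place of TMM scaling, the resistance calls of CDC6, CDC25A, CTTN, FADD and PPFIA1 were lost, and MYC (0.18) and RRM2 (0.23) were called higher there.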

How the data were processed

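The authors deposited 2 tables of raw read counts per gene, 1 per experiment. Per the file headers, the overexpression counts were made with featureCounts 2.0.1 over exons of the Ensembl release 107 annotation of GRCh38, with no strand option, although the kit named in the labels marks strand. For the resistance counts, counter, annotation and strand setting were not given in the sources used here. The submitters' processing notes name hg38. Parental columns are headed NC with a number that no parental title holds; since the resistant columns stand in the same table, they were read as parental, an inference, and named libraries a, b and c.

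Symbols were matched for 61757 of 61860 and 62700 of 62700 identifiers. Each experiment was fitted alone in edgeR 4.0.16 (R 4.3.3): filterByExpr, TMM scaling, quasi-likelihood test, and Benjamini-Hochberg adjustment across every gene that passed the filter. The difference between experiments was tested in 1 fit of 12 libraries over genes in both tables. CPM per kb used the union exon length of GENCODE 29, since the overexpression table gives no length. The procedure was run on simulated data with few changed genes, unlike the comparisons here, and the outcome is not given. The labels do not say whether replicates are separate cultures; p-values cover only the spread among the libraries at hand, possibly a technical one. Replicate pairs all differed by more than sampling noise (chi-square per degree of freedom 1.54 to 12.2).

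The genes and lists were chosen with earlier results of these data known. Genes were named from among the 4 called genes with the smallest p per list and comparison, the genes of lists of 8 or fewer, and genes whose exons overlap. Of the 10 named genes CCND3, with the plasmid, and CCNE2, in resistance, had the largest called change, and the 3 genes of the most like pattern were sought for each. Alternatives were DESeq2 1.42.0, limma-voom (limma 3.58.1), other scalings and filters, a replicate block, a 1.5-fold threshold, 1 fit of 12 libraries, raw-count shares and leaving out each library.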

Additional observations from a re-analysis of the deposited data

How the results depend on the processing

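Over 405 alternative fits of the fold changes of the 9 tested genes, 382 kept direction and side of the threshold, 17 lost the call, 6 gained one and 0 turned round. Requiring a change over 1.5-fold left 1880 genes higher and 1938 lower with the plasmid (2 and 1 of the 9), and 1042 higher and 1065 lower in resistance (2 and 0), in place of 6185 and 6049 (4 and 4) and of 4520 and 4679 (4 and 3). The median of all resistance genes moved to 0.18 with library sizes alone and 0.12 with upper quartile scaling, with 6548 genes higher and 3111 lower under the first and 5761 and 3584 under the second; the cause was not tested. Under both, RB1 lost its call there (-0.01 and -0.07), so 2 of the 9 were lower. CCND3 in resistance was called by limma-voom (-0.16, adjusted p = 0.0453) and in the fit of all libraries (-0.15, adjusted p = 0.0332). Leaving out 1 library gave 4 to 5 of the 9 higher and 4 lower with the plasmid, 4 higher and 2 to 4 lower in resistance, and 7 to 9 that differed between the experiments.

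From raw counts in place of counts per kb, the share of CCND1 differed by 3.78, of CCND2 by -8.02 and of CCND3 by 4.25 percentage points with the plasmid, and by -13.98 for CCND1, 13.9 for CCND2 and -1.68 for CDK6 of CDK4 and CDK6 in resistance. The CDK6 share with the plasmid differed by -0.0066 to 0.314 points when 1 library was left out. Among the other genes, CTNNB1 with the plasmid turned to -0.059 with upper quartile scaling. With library sizes alone, TFDP1, MCM4 and SLBP in resistance turned to 0.0087, 0.15 and 0.13, and the differences between experiments of TFDP1, RBX1, MCM3 and MCM7 to -0.028, -0.15, -0.030 and -0.039.

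With the replicate number as a block, 6105 genes were higher and 5965 lower with the plasmid, and 4 and 4 of the 9. Same-numbered libraries deviated with correlations of -0.02, -0.03 and -0.01, so no shared deviation was seen. With so few libraries per group, these values cannot show whether same-numbered libraries were prepared together. No paired analysis was possible because parental columns carry no number tied to a sample for the resistance comparison. Depth limits CCNE2 and CDK6 in resistance, at under 6 CPM, and CDKN2A.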

Other observations

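The genes whose log2 pattern (CPM + 0.5, centred on the controls of each table) over the 12 libraries lay nearest to that of CCND3, by Euclidean distance among 8882 genes averaging 10 CPM or more, were SHFL, WARS1 and CAPG, at distances of 0.241, 0.253 and 0.265. Their log2 fold changes were 1.35, 1.24 and 1.21 with the plasmid and -0.18, -0.22 and -0.06 in resistance. The 3 nearest to CCNE2 were ZNF584 (0.450), CCNB1IP1 (0.503) and the locus ENSG00000264112 (0.523). Their log2 fold changes were 0.52, 0.68 and 0.78 with the plasmid and 0.91, 0.82 and 0.99 in resistance. CCNE2 itself averaged at most 9.61 CPM, with the plasmid, and as little as 2.18 CPM in parental cells. The added 0.5 CPM thus damped its pattern more than that of the genes searched.

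As a share of the E-type cyclins per kb of exon, CCNE2 made up 14.95 ± 2.27% with the plasmid and 19.5 ± 0.0935% with the vector (exact permutation p = 0.1, two-sided, the smallest that 3 against 3 allow). In resistant cells it made up 16.5 ± 2.95%, against 13.4 ± 1.78% in parental cells (exact permutation p = 0.2, two-sided).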
